A study of Mus musculus with 6 samples.

Results

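The enzymes that make adrenaline and noradrenaline, encoded by Th, Ddc, Dbh and Pnmt, were followed in adrenal medulla 8 weeks after transverse aortic constriction (TAC), an operation that narrows the aorta so that the left ventricle pumps against high pressure, or after a sham procedure. Members were all probe sets (groups of short array probes that read the same transcript) whose only gene symbol in GEO's platform annotation is one of the 4 genes. These 4 genes, of 18193 read by such probe sets, had 9 of the 45037 probe sets other than array controls: 1 for Th, 2 for Ddc, 3 for Dbh and 3 for Pnmt. Male C57/Bl6 mice were used, 3 per group, and each of the 6 Affymetrix whole-genome mouse arrays held amplified RNA from the microdissected medullae of a single animal. The labels do not give the age of the mice, and measures of heart function were not analysed here.

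Catecholamines are made from tyrosine in a chain of enzyme reactions. Tyrosine hydroxylase (Th) makes L-DOPA, aromatic L-amino acid decarboxylase (Ddc) makes dopamine, dopamine beta-hydroxylase (Dbh) makes noradrenaline inside the secretory granule, and phenylethanolamine N-methyltransferase (Pnmt) methylates noradrenaline to adrenaline. Th sets the pace of the chain and is also controlled by phosphorylation, which transcript levels do not show. Pnmt marks the adrenaline-making chromaffin cells, and its transcription is known to respond to glucocorticoids from the surrounding cortex.

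The sequences in front of the start sites are shown because these genes are known targets of signals that reach the chromaffin cell. RefSeq promoters (GRCm38.p6) were found for 3 of the 4 genes, with 2 start sites for Ddc, and Pnmt is not in the table used. Which of the 2 Ddc starts the medulla uses was not measured here. The 250 bases before the start of Th, of the first listed start of Ddc and of Dbh are printed 5′ to 3′. Capitals mark matches, on either strand, to the cyclic AMP response element (TGACGTCA), the AP-1 element (TGANTCA), the Sp1 GC box (GGGCGG) or the TATA box (TATAAA).
Th, chr7:142899996-142900245, minus strand: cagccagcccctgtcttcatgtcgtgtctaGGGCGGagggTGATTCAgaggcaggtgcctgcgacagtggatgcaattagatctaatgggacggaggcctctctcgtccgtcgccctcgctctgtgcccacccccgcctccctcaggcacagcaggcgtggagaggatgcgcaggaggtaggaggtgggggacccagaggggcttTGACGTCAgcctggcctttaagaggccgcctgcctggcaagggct
Ddc, chr11:11898145-11898394, minus strand: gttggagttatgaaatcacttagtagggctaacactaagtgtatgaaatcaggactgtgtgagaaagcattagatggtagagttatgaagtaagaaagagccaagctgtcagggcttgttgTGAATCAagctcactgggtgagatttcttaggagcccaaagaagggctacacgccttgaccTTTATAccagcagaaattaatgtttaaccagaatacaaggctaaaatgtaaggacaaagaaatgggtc
Dbh, chr2:27165257-27165506, plus strand: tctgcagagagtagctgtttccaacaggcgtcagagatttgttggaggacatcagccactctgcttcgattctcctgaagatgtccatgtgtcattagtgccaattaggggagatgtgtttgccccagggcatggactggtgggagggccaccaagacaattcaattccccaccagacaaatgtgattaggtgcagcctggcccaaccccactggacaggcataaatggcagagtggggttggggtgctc

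Th alone among these starts held a cyclic AMP response element, beginning 45 bases before the start, and this motif occurred in 1.55% of 32851 RefSeq promoter windows of the same length. Th also held an AP-1 element, beginning 210 bases before the start, and a GC box. AP-1 elements occurred in 6.75% and GC boxes in 32.7% of all windows. The first Ddc start had an AP-1 element, beginning 129 bases before it. It also had a match to the TATA box motif, found in 12.4% of windows, on the opposite strand and beginning 68 bases before the start. Overlapping that match was the NR4A element AAAGGTCA, beginning 73 bases before the start, which 1.34% of windows hold. In the second Ddc start and in Dbh none of the 8 motifs searched was found. The remaining motifs searched were 2 forms of the Egr element (GCGGGGGCG in 2.57% and GCGTGGGCG in 0.536% of windows) and the glucocorticoid receptor hexamer (AGAACA, 16.1%). These matches describe letters in a window and no binding was measured.

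Values are log2 intensities, and a difference is the TAC mean less the sham mean (n = 3 each). Testing required log2 4 on 3 or more of the 6 arrays, which all 9 member probe sets met. Pnmt 1460269_at reached that level on the 3 TAC arrays alone, so it could only have entered the test with a difference. In limma, 0 of the 9 passed an adjusted p of 0.05, and neither did any other probe set, since 0 of 18188 were called (0%). At an unadjusted p under 0.05 limma called 1263. In bulk tissue a change in the number of chromaffin cells and a change in RNA per cell cannot be told apart.

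The 6 arrays differed in ways that touch these genes. Gapdh control probe sets read both ends of the transcript, and the excess of the 3′ over the 5′ signal grows as transcripts are shortened. This Gapdh excess was 5.15 in sham 1 and 4.71 in TAC 1, and lay between 2.88 and 3.98 in the other 4 arrays. Its group means differed by 0.42 (exact 2-sided permutation p = 0.6, where 0.1 is the smallest that 3 against 3 arrays allow). Chromaffin granule and secretion genes, 9 of 9 measured, were high throughout, with a mean from 11.27 to 12.14 after TAC and from 11.41 to 11.99 after sham, as medulla should show. Adrenal cortex genes, 6 of 10 measured, varied widely, with a mean from 6.30 to 9.57 after TAC and from 6.41 to 10.97 after sham, highest in sham 3 and then TAC 1. Cyp11b2, Mc2r and Nr5a1, which also mark cortex, did not reach the filter.

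Th was high on every array, and TAC and sham overlapped. Its only probe set, 1420546_at, read 12.31, 13.70 and 13.36 in TAC 1 to 3 and 13.12, 13.74 and 13.40 in sham 1 to 3. TAC 1 was the lowest of the 6 arrays, and the remaining TAC arrays lay inside the range of the sham arrays. The difference was -0.30 ± 0.42 (SE, limma adjusted p = 0.981), and its 95% interval ran from -1.31 to 0.71. A fall to 0.402 of the sham level and a rise to 1.64-fold both lie within that interval, so changes of such size were not resolved. Without TAC 1 the difference turned to 0.10 (limma adjusted p = 0.999).

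**Figure D1:**
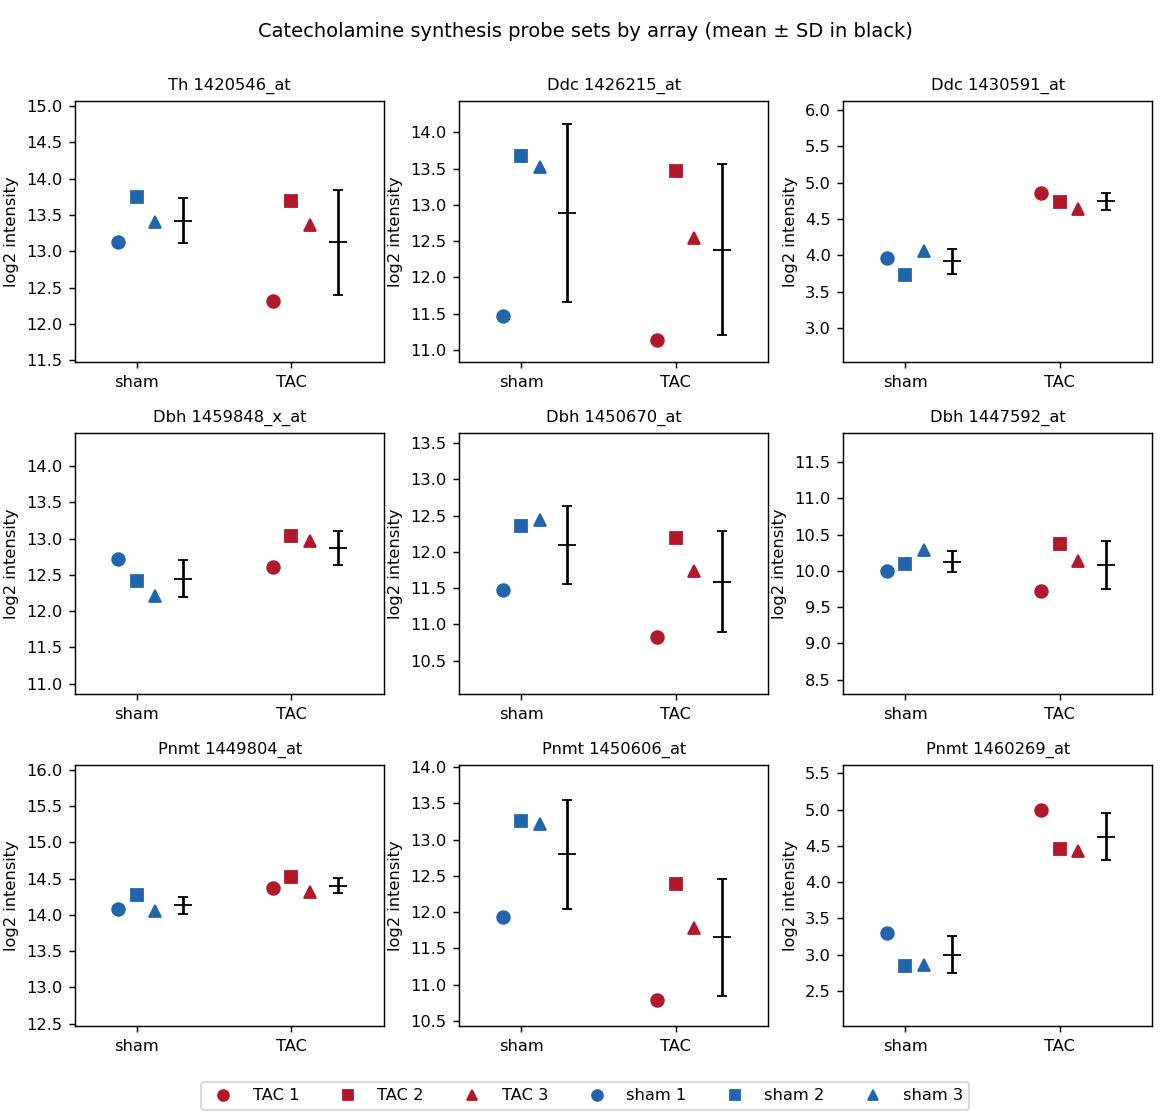
Log2 intensity of each of the 9 probe sets on the 6 arrays, sham (blue) and TAC (red), with circles, squares and triangles for animals 1, 2 and 3 and the mean ± SD of 3 arrays in black. Every panel spans the same height on the log2 scale, so the spread of Ddc 1426215_at, from 11.13 to 13.67, can be set against that of Pnmt 1449804_at, from 14.05 to 14.52.

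Ddc was read by a bright and a dim probe set whose differences had opposite signs, though the direction of the bright one was not resolved. The bright one, 1426215_at, read 11.13, 13.47 and 12.54 after TAC and 11.47, 13.67 and 13.52 after sham. It had the widest spread of the 9, with TAC 1 and sham 1 more than a full log2 unit below every other array. The difference of -0.51 ± 0.82 (limma adjusted p = 0.983) had a 95% interval from -2.50 to 1.48, and without TAC 1 it was 0.12.

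The dim Ddc probe set, 1430591_at, read 4.86, 4.73 and 4.64 after TAC and 3.96, 3.73 and 4.06 after sham. All 3 TAC arrays lay above all 3 sham arrays, a difference of 0.83 ± 0.22 or 1.77-fold (limma adjusted p = 0.508, unadjusted p = 0.00951). Of the sham arrays, 2 were under log2 4, and with such values set to 4 the difference was 0.72 ± 0.20 (adjusted p = 0.492). With log2(value + 16) it was 0.46, since the values lie close to the bottom of the scale.

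Dbh was read by 3 probe sets, which differed from one another more than the groups did. The brightest, 1459848_x_at, whose suffix marks probes that can bind other transcripts, read 12.60, 13.03 and 12.96 after TAC and 12.71, 12.42 and 12.20 after sham. Only sham 1 lay within the TAC range, and the difference was 0.42 ± 0.26 (limma adjusted p = 0.886, 95% interval -0.20 to 1.05). It was 0.69 with TAC 1 and sham 1 left out together, which had the highest Gapdh excess in their groups (unadjusted p = 0.031, adjusted p = 0.332, limma).

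The second Dbh probe set, 1450670_at, read 10.83, 12.20 and 11.74 after TAC and 11.48, 12.36 and 12.44 after sham. Its arrays overlapped, with TAC 1 and sham 1 lowest, and the difference was -0.51 ± 0.46 (limma adjusted p = 0.953). The third, 1447592_at, read 9.72, 10.37 and 10.14 after TAC and 9.99, 10.09 and 10.28 after sham, a difference of -0.04 ± 0.26 (adjusted p = 0.998). Here the sham arrays lay inside the TAC range, and the 95% interval from -0.68 to 0.59 leaves room for a fall to 0.625 of the sham level or a rise to 1.5-fold. Without TAC 1 the second probe set differed by -0.13 and the third by 0.13.

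Pnmt gave the tightest and also the most contradictory readings. Its brightest probe set, 1449804_at, read 14.37, 14.52 and 14.31 after TAC and 14.08, 14.27 and 14.05 after sham. The lowest TAC value lay just above the highest sham value, a difference of 0.27 ± 0.21 or 1.21-fold (limma adjusted p = 0.939). The 95% interval from -0.25 to 0.79 is the narrowest of the 9 and reaches at most 1.73-fold.

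The probe set 1450606_at of Pnmt pointed the other way, reading 10.79, 12.39 and 11.79 after TAC and 11.93, 13.25 and 13.21 after sham. Of the TAC arrays, TAC 2 alone lay above the lowest sham array. The difference was -1.14 ± 0.55, or 2.21-fold lower after TAC (limma unadjusted p = 0.0821, adjusted p = 0.788), with a 95% interval from -2.49 to 0.20. Leaving out 1 array gave values from -0.71 (without TAC 1) to -1.58 (without sham 1, limma unadjusted p = 0.0222, adjusted p = 0.326). Without TAC 1 and sham 3, the arrays with the most cortex signal, it was -0.50. Of 19 alternatives 10 had an unadjusted p under 0.05, and array weights alone gave an adjusted p under it.

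The dim Pnmt probe set, 1460269_at, read 5.0, 4.45 and 4.43 after TAC and 3.30, 2.85 and 2.86 after sham. The groups did not overlap, and the difference was 1.63 ± 0.28 or 3.09-fold (limma unadjusted p = 0.000991, adjusted p = 0.384). Every sham value was under log2 4, so the size is unreliable, and with such values set to 4 the difference was 0.63 ± 0.24 (unadjusted p = 0.040, adjusted p = 0.663). Of 1206 tested probe sets that reached log2 4 on exactly 3 arrays, 22 did so on the 3 TAC arrays and 37 on the 3 sham arrays.

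Of the 9 probe sets, 4 were higher and 5 lower after TAC, with a median difference of -0.04 against 0.05 over all tested probe sets. At an unadjusted p under 0.05 in limma there were 2 of 9, the dim ones of Ddc and Pnmt, both higher, where 6.94% of all tested probe sets reached that level and 4.65% were higher. Nothing is read from this count, since the filter admitted the dim Pnmt probe set through its TAC arrays alone and 2 sham values of the dim Ddc probe set lie under log2 4. With a mean of log2 6 required, 7 members were left and 0 reached an unadjusted p under 0.05. Groups did not overlap at the same 2 dim probe sets and at Pnmt 1449804_at, all higher after TAC. Over all tested probe sets 13% did not overlap, 9.01% higher and 4.01% lower. This count is not read either, since it holds the same 2 dim probe sets.

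Most of the unadjusted calls on the whole array were higher (846 of 1263), but this split depended on the scaling. It was 772 of 1425 with quantile and 650 of 1520 with cyclic loess normalization, 690 of 1361 with median centring and 550 of 1058 with centring on chromaffin markers. Each of the 9 probe sets kept its sign under these 4 scalings, but the member calls did not stay in 1 direction. Pnmt 1450606_at, lower after TAC, reached an unadjusted p of 0.0205, 0.0167, 0.0191 and 0.0145 in limma under them, in the order given (adjusted p from 0.507 to 0.777). Ddc 1430591_at went to an unadjusted p of 0.072 with centring on chromaffin markers (limma adjusted p = 0.862).

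**Figure D2:**
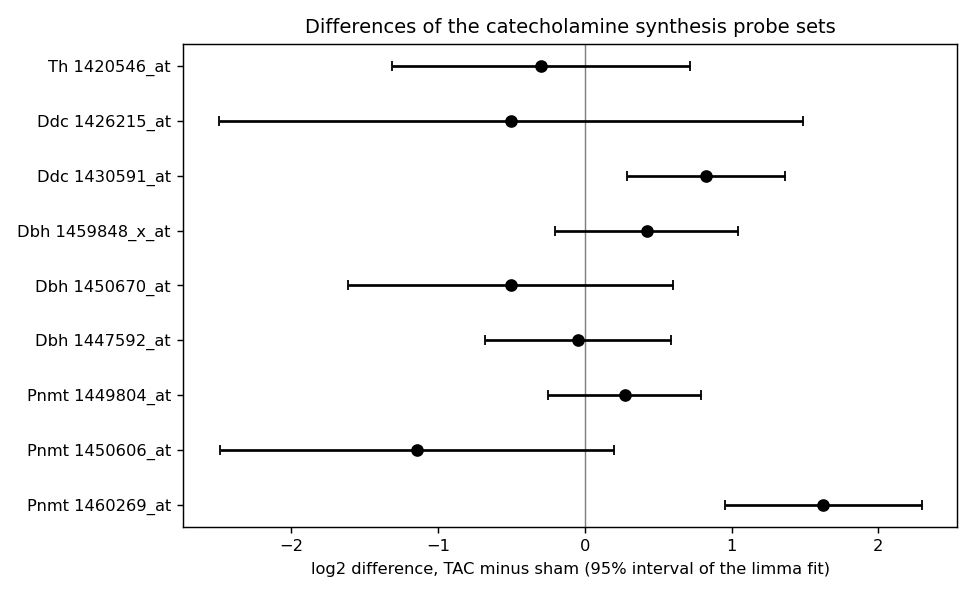
Log2 difference of TAC minus sham for each of the 9 probe sets (points) with the 95% interval of the limma fit (bars), and a line at no difference. The intervals of Ddc 1430591_at (0.28 to 1.37) and Pnmt 1460269_at (0.95 to 2.30) do not reach 0 before adjustment, though both have sham values under log2 4, and the 3 probe sets of Pnmt lie at 0.27, -1.14 and 1.63.

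Disagreement between probe sets of a gene was measured within each array, where a scaling of the whole array cancels. Pnmt 1449804_at exceeded 1450606_at by 3.58, 2.13 and 2.53 after TAC and by 2.14, 1.02 and 0.83 after sham. This gap was larger by 1.42 after TAC (exact 2-sided permutation p = 0.2), although TAC 2 fell just inside the sham range. Pairs with the dim probe sets of Pnmt and Ddc are not described, since the sham values of these lie near or under log2 4. For Dbh the gap between 1459848_x_at and 1450670_at was 1.78, 0.84 and 1.23 after TAC and 1.24, 0.06 and -0.24 after sham, larger by 0.93 (exact permutation p = 0.3). All 7 such pairs had a Benjamini-Hochberg adjusted p of 0.3. This comparison was chosen after the values were seen.

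Across the 6 arrays the 9 probe sets showed 2 patterns that cut across genes. Those lowest in TAC 1 (Th 1420546_at, Ddc 1426215_at, Dbh 1450670_at, Dbh 1447592_at and Pnmt 1450606_at) varied together, with Pearson r between 0.72 and 0.96 for every pair. The other 4 probe sets correlated with one another at 0.61 to 0.96, and with the first 5 at -0.84 to 0.13. They include the dim probe sets of Ddc and Pnmt, with sham values near or under log2 4. The 0.96 among these 4 and the -0.84 both involve Pnmt 1460269_at, which the filter admitted through its TAC arrays alone. The bright ones, Dbh 1459848_x_at and Pnmt 1449804_at, correlated at 0.67. These are descriptions over 6 arrays that include both groups, and the split was made after seeing the values. Different probe sets of Dbh and of Pnmt therefore fall on opposite sides, and so do those of Ddc, where the split rests on the dim one.

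The first 5 probe sets had negative correlations with the Gapdh excess of the arrays, none of which passed adjustment. They were chosen as lowest in TAC 1, where the excess was 4.71, so this sign is partly built in. The largest correlation was that of Ddc 1426215_at, with Pearson r = -0.93 (exact permutation p = 0.0111, adjusted p = 0.1 over 9 relations) and Spearman rho = -0.89 (exact permutation p = 0.0333, adjusted p = 0.15). Dbh 1450670_at had r = -0.87 (exact permutation p = 0.025, adjusted p = 0.113) and rho = -0.94 (exact permutation p = 0.0167, adjusted p = 0.15). Without sham 1 and sham 3, the arrays farthest from the median, r was -0.96 for both. For Pnmt 1450606_at r was -0.82, for Th -0.67 and for Dbh 1447592_at -0.66 (exact permutation p from 0.0514 to 0.144, adjusted p from 0.154 to 0.26). Their Spearman rho was -0.77, -0.77 and -0.66 (exact permutation p from 0.103 to 0.175), and without the same arrays r was -0.998, -0.92 and -0.66. The brightest Pnmt probe set had r = 0.02 and the brightest Dbh probe set r = 0.44 (exact permutation p = 0.963 and 0.383).

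**Figure D3:**
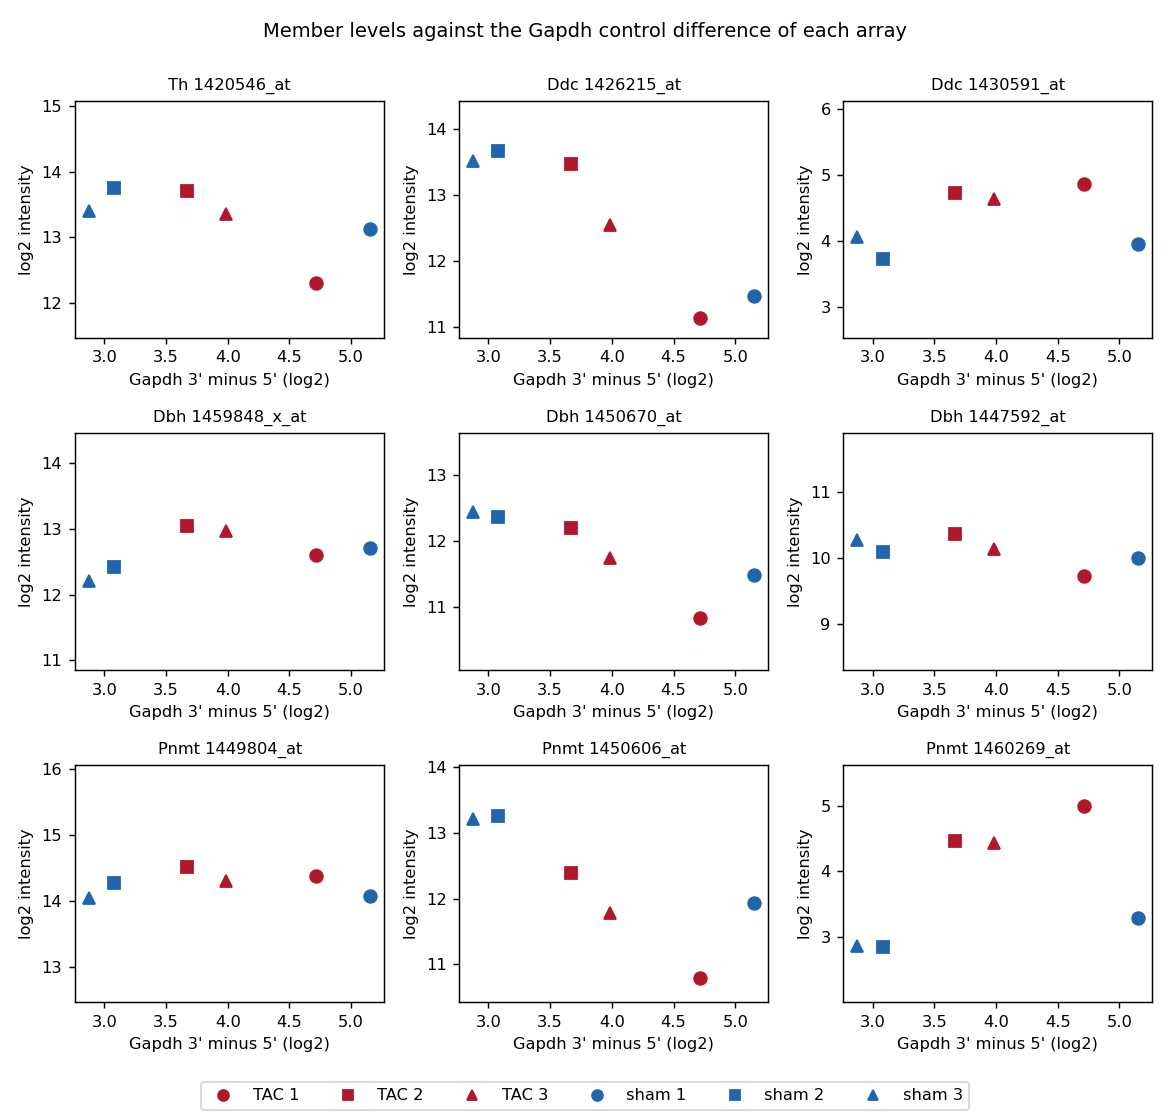
Log2 intensity of each of the 9 probe sets (vertical axis) against the excess of the 3′ over the 5′ Gapdh signal of the array on the log2 scale (horizontal axis), with sham in blue and TAC in red. Ddc 1426215_at falls from 13.52 in sham 3, where the Gapdh excess is 2.88, to 11.47 in sham 1, where it is 5.15, while Pnmt 1449804_at stays between 14.05 and 14.52.

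With the Gapdh excess as a covariate in limma, the bright Ddc probe set differed by -0.02 in place of -0.51, and Th by -0.15 in place of -0.30. Pnmt 1450606_at then differed by -0.84 (adjusted p = 0.178). The arrays were also split by Gapdh excess, which leaves a single sham or a single TAC array in each part, so these values have no spread in that arm. Within TAC 1, TAC 3 and sham 1, the 3 arrays of higher Gapdh excess, the brightest Dbh probe set differed by 0.07, and within the other 3 by 0.72. In the same order Th differed by -0.29 and 0.12, Ddc 1426215_at by 0.37 and -0.13, and Pnmt 1449804_at by 0.27 and 0.36. The part of transcript shortening in these values was not tested further.

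The balance between enzymes was compared as the log2 difference between the brightest probe sets of a pair of genes within each array. Th minus Dbh was -0.29, 0.66 and 0.40 after TAC and 0.41, 1.32 and 1.20 after sham, a difference of -0.72 (exact 2-sided permutation p = 0.2). Sham 1 lay among the TAC arrays here. Th minus Pnmt was -2.06, -0.82 and -0.95 after TAC and -0.95, -0.52 and -0.64 after sham, a difference of -0.57 (exact permutation p = 0.2), with sham 1 inside the TAC range. Dbh minus Pnmt, the final pair of the chain, differed by 0.15 (exact permutation p = 0.5).

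Ddc minus Dbh differed by -0.93, Ddc minus Pnmt by -0.78 and Th minus Ddc by 0.21 (exact permutation p from 0.4 to 0.8). Without TAC 1, Th minus Dbh differed by -0.45, Th minus Pnmt by -0.18, Ddc minus Dbh by -0.44 and Ddc minus Pnmt by -0.17. Without sham 1 the Ddc pairs differed by -1.77 and -1.46, in the same order, and Th minus Ddc by 0.77. Dbh minus Pnmt ran from 0.06 without TAC 3 to 0.31 without sham 1. Groups overlapped in all 6 pairs, and the adjusted p was 0.6 for 5 of them and 0.8 for Th minus Ddc. The mean of all probe sets of a gene was also used in place of the brightest. Th minus Ddc then turned to -0.46, Ddc minus Dbh to 0.20 and Dbh minus Pnmt to -0.29 (exact permutation p from 0.1 to 0.8). Each of these pairs averages in a dim probe set of Ddc or Pnmt, with sham values near or under log2 4. Nothing is therefore read from the turned signs.

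**Figure D4:**
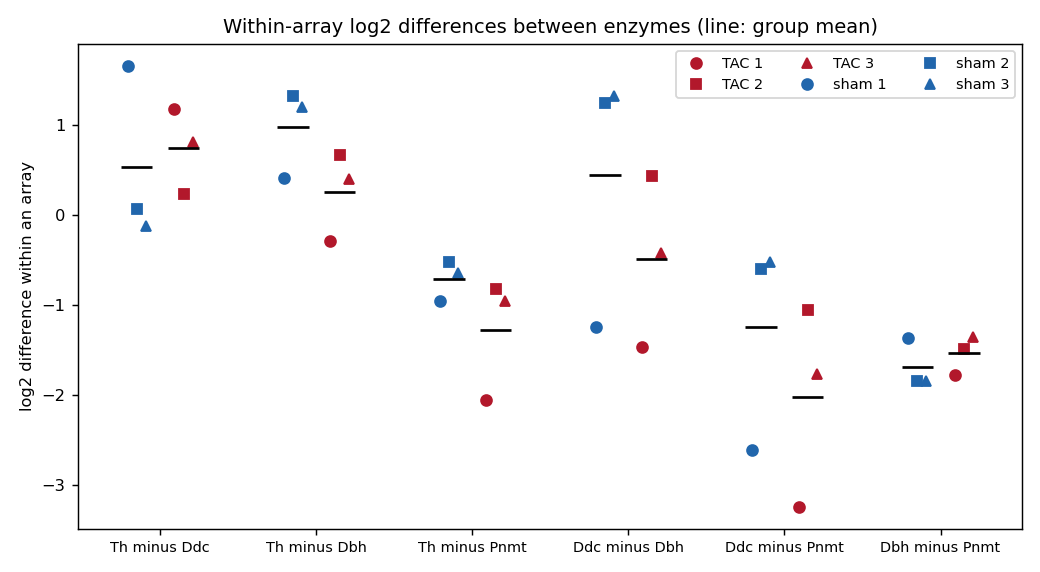
Log2 difference between 2 enzymes within an array (vertical axis) for the 6 pairs of genes, each read by its brightest probe set, for sham (blue) and TAC (red) arrays with lines at group means. Th minus Dbh runs from 0.41 to 1.32 after sham and from -0.29 to 0.66 after TAC, and the groups overlap in every pair.

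The mean of 9 chromaffin granule and secretion markers differed by 0.0016 between the groups, so centring on it leaves the differences in place and alters their errors. With each array centred on this mean, Th differed by -0.30, Ddc 1426215_at by -0.51, Dbh 1459848_x_at by 0.42 and Pnmt 1449804_at by 0.27 (limma adjusted p from 0.953 to 0.985). Sympathetic neurons also express Th, Ddc and Dbh. Genes listed as their markers were measured for 8 of 9. The mean of these genes ran from 6.64 to 7.77 after TAC and from 7.37 to 8.41 after sham (exact permutation p = 0.2). All 8 were lower after TAC, with Map2 alone at an unadjusted p under 0.05 (limma unadjusted p = 0.0454, adjusted p = 0.706). Prph and Tubb3 lay near log2 4. Npy read from 13.03 to 14.07 over the 6 arrays, where Th read from 12.31 to 13.74. Whether this list reads neurons apart from chromaffin cells was not tested, so nothing on neuron number is read from it. Fibroblast markers, 7 of 7 measured, had a mean from 6.12 to 7.41 after TAC and from 7.05 to 8.51 after sham (exact permutation p = 0.2). This mean differed by -1.21, with 6 genes lower and 1 higher after TAC. Of the lower ones, 4 had an unadjusted p under 0.05 in limma (smallest adjusted p = 0.527). The part of these cells in the member values was not tested.

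The rest of the pathway was followed through lists in which 0 genes had an adjusted p under 0.05 in limma. Of the cofactor genes 6 of 8 were measured, with 4 higher and 2 lower and a median difference of 0.08. They were Gch1 (0.30), Pts (0.03), Spr (-0.37), Qdpr (0.14) and Pcbd1 (0.16), which make or recycle the tetrahydrobiopterin that Th needs, and Cyb561 (-0.05), which supplies Dbh with electrons from ascorbate. A dimmer probe set of Gch1 read 0.25 and one of Qdpr -0.83. Of the storage, reuptake and breakdown genes 5 of 7 were measured, with 2 higher and 3 lower and a median of -0.09. The vesicular monoamine transporters Slc18a1 and Slc18a2 differed by 0.03 and -0.69, the noradrenaline transporter Slc6a2 by 0.37 and the monoamine oxidases Maoa and Maob by -0.09 and -0.21. Dimmer probe sets of Slc18a1 and Slc6a2 read -0.62 and -0.15.

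Among kinases, phosphatases and partners of tyrosine hydroxylase 14 of 16 were measured, with 4 higher and 10 lower (median -0.24). Prkacb and Prkaca, which encode catalytic subunits of the cyclic AMP-dependent kinase that phosphorylates Th, differed by -1.45 ± 0.42 and 0.74 ± 0.23 (limma adjusted p = 0.551 and 0.560). A second probe set of Prkaca read 0.23. Among transcription factors of the catecholamine genes 19 of 21 were measured, with 13 higher and 6 lower (median 0.23). Hand2, a regulator of noradrenergic identity, differed by 0.74 ± 0.24 (limma adjusted p = 0.584) and Jund, an AP-1 subunit, by 0.77 ± 0.37 (adjusted p = 0.785). These counts take the brightest probe set of a gene. For Creb1, Sp1 and Tfap2b, named after their values were seen, a dimmer probe set was lower after TAC. These differed by -1.22, -1.56 and -1.38 (limma unadjusted p = 0.00146, 0.00529 and 0.0267, adjusted p from 0.392 to 0.627), where the brightest gave -0.08, 0.23 and 0.42. Another dimmer probe set read -0.02 for Creb1 and 0.09 for Sp1 (limma unadjusted p = 0.936 and 0.668), so the dimmer ones did not agree.

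Precursor uptake and methyl donor genes were measured for 5 of 7, with 3 higher and 2 lower (median 0.04). Slc7a8, an amino acid transporter, differed by 0.32 ± 0.30 and Mat2b, which regulates synthesis of the methyl donor used by Pnmt, by -0.91 ± 1.32 (limma adjusted p = 0.960 and 0.982).

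The genes whose pattern over the 6 arrays was most like each enzyme were found by Pearson r among tested probe sets with 1 symbol. For Th they were Slc25a4, Slc44a1 and Mpp6, at r = 0.993 to 0.996. For the bright Ddc probe set they were Lgals8, H2-D1 and Prxl2b, at 0.999 each, and 20.6% of such probe sets exceeded r = 0.9 with it. For the brightest Dbh probe set they were Marchf2, Chdh and Sh3glb1 (0.981 to 0.995), and for the brightest Pnmt probe set Trio, Fnip2 and Csnk1g1 (0.986 to 0.988). Only 0.313% of probe sets exceeded r = 0.9 with that of Dbh, 1.05% with that of Pnmt and 3.44% with that of Th. Likeness over 6 arrays is a description and reflects whatever the arrays share.

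**Figure D5:**
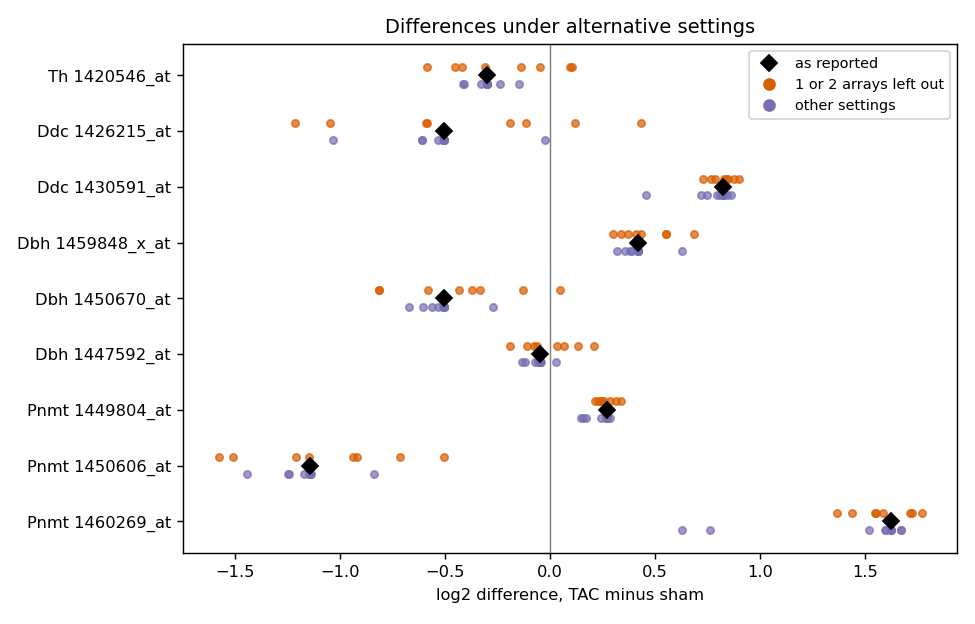
Log2 difference of TAC minus sham for the 9 probe sets as reported (black diamonds), with 1 or 2 arrays left out (orange) and under other normalizations, filters and models (purple). Pnmt 1449804_at stayed between 0.15 and 0.34 under 19 alternatives, and Dbh 1447592_at, at -0.04, turned sign under 5 of them.

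The result of 0 calls changed under a single alternative. With limma's array weights 6 of the 9 member probe sets passed an adjusted p of 0.05, 3 higher (Ddc 1430591_at, Dbh 1459848_x_at and Pnmt 1460269_at) and 3 lower (Ddc 1426215_at, Dbh 1450670_at and Pnmt 1450606_at), together with 6698 of 18188 probe sets on the array. Those weights were 6.11 for TAC 3 and at most 0.396 for the other TAC arrays, so the TAC side rested mostly on a single animal. Dbh then had bright probe sets called in opposite directions, while the higher calls of Ddc and Pnmt were the dim probe sets with sham values under log2 4.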

How the data were processed

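The authors deposited linear intensity values, 1 for each probe set on each array. The submitters' processing notes name GCRMA, a background correction and summary method (version not given in the sources used here). Per the labels' protocols, 3′ amplification ran for 2 cycles, which favours transcript 3′ ends. Values were log2-transformed without further scaling. The arrays do not share 1 distribution (medians of tested probe sets from 6.31 to 7.01), so whether they had been normalized between arrays is unknown. The 18188 probe sets with 3 or more arrays at or above log2 4 were tested together with limma 3.58.1 in R 4.3.3 (lmFit, eBayes, 2-sided, 4 residual degrees of freedom), with Benjamini-Hochberg adjustment at 0.05. The procedure was tested on simulated data with independent noise for each probe set, which does not hold the variation that these arrays share. The number of arrays limits the precision, with a median standard error of 0.39. The probe set with the highest mean stands for a gene. All member probe sets are named, with the cofactor and storage genes, the 2 smallest p-values of each other pathway list and the 3 most alike genes per enzyme. Members, lists and alternatives were chosen with earlier results of these data known. Of the other marker lists, endothelial, sustentacular and Schwann, macrophage and smooth muscle means differed by 0.02, 0.31, 0.02 and 0.15 (exact permutation p from 0.5 to 1). No genome build is named, so probe sets have no coordinates.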

Additional observations from a re-analysis of the deposited data

How the results depend on the processing

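Under 19 alternatives, of which 1 was added after seeing the data (values under log2 4 set to 4), no member probe set passed the limma threshold except with array weights, where 6 of 9 members and 6698 of all probe sets did. There Ddc 1426215_at differed by -1.03, Ddc 1430591_at by 0.75, Dbh 1459848_x_at by 0.63, Dbh 1450670_at by -0.67, Pnmt 1450606_at by -1.44 and Pnmt 1460269_at by 1.599. Members at an unadjusted p under 0.05 numbered 2 in the reported fit, 6 with array weights, 0 when a mean of log2 6 was required (7 members left), 4 without TAC 1 and sham 1 and 1 without TAC 1 and sham 3. They numbered 3 with quantile or cyclic loess normalization, median centring, the replicate block, the Gapdh covariate, no filter, and without TAC 2 or sham 1. In all of these except no filter, Pnmt 1450606_at was the added, lower call. Over all probe sets that count was 1263, and it was 3005 with the replicate block, 3843 with the Gapdh covariate, 8749 with array weights, 2110 without a filter and 641 to 2429 with 1 array left out. It was 2507 without TAC 1 and sham 1, and 640 without TAC 1 and sham 3.

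Leaving out 1 array moved Th between -0.59 and 0.10, Ddc 1426215_at between -1.22 and 0.12 and Dbh 1447592_at between -0.19 and 0.13. Without TAC 1 and sham 3, Th was 0.095, Ddc 1426215_at 0.44, Dbh 1450670_at 0.047 and Dbh 1447592_at 0.21. Dbh 1447592_at was also 0.068 without TAC 1 and sham 1, and 0.027 with the Gapdh covariate. Ddc 1430591_at, Dbh 1459848_x_at and the 3 Pnmt probe sets kept their sign under every alternative that gave a value. Within an array, Th minus Ddc moved between -0.12 and 0.77 with 1 array left out and was -0.34 without TAC 1 and sham 3, where Ddc minus Dbh was 0.0039 and Ddc minus Pnmt 0.19. With probe sets averaged, the 3 turned pairs were -0.46, 0.20 and -0.29. These averages hold the dim probe sets of Ddc and Pnmt, which differed by 0.83 and 1.63 in the reported fit. Averages without them were not tested. No label says that equal replicate numbers pair the samples, so the reported fit did not pair them. Deviations from the group means correlated at 0.76, 0.78 and -0.22 for numbers 1, 2 and 3. TAC 2 and sham 3, with unlike numbers, correlated at 0.71. With 3 arrays per group these values cannot decide whether the numbers pair the samples. With the replicate block 0 probe sets passed adjustment, and Pnmt 1450606_at kept -1.14 (adjusted p = 0.190).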
